A study of Mus musculus with 6 samples.

Results

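The CC chemokines are small secreted proteins that draw leukocytes along a gradient. The 10 genes described here, Ccl2, Ccl3, Ccl4, Ccl5, Ccl6, Ccl7, Ccl9, Ccl17, Ccl20 and Ccl22, were chosen by symbol, and all 10 were found among the 24014 genes of the count tables. RNA had been sequenced from epidermal cells of wild type newborn mouse back skin on postnatal day 2. In 3 libraries the skin was healing after a suction blister, raised by negative pressure under a syringe 4 mm across, and the other 3 libraries came from control skin. The blisters were 3 mm across, and the time from blistering to collection is not in the labels. Every library was made from cells freed by trypsin and passed through a filter, with no sort for a cell type described, so leukocytes and dermal cells that came away with the epidermis would be counted with it. Whether separate animals stand behind the 3 libraries of each group is not in the labels, so p-values reflect library-to-library spread, part of which may be technical.

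CC chemokines carry a pair of adjacent cysteines near their amino end and act through G protein-coupled receptors named Ccr, while atypical receptors bind some of them without that signal and remove or hold them. Ccl2 and Ccl7 call monocytes through Ccr2. Ccl3 and Ccl5 are ligands of Ccr1, as are Ccl6 and Ccl9 in rodents, and Ccl4 is a close relative of Ccl3. Ccl17 and Ccl22 share the receptor Ccr4 of skin-homing T cells, and Ccl20, which keratinocytes can make, acts through Ccr6. In skin, wounded keratinocytes, resident macrophages and arriving myeloid cells are known sources of the inflammatory members.

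Library totals ran from 7600567 counts in blister 2 to 15912863 counts in control 3. The 10 genes were low: they held 378 to 564 counts together in a blister library and 98 to 259 in a control library. Levels are given as CPM, the counts of a gene scaled to a common library size with edgeR's TMM factors. Markers of dermal cells differed between groups and were highest in control 3. The summed level of 8 dermal fibroblast markers was 725 to 1511 CPM in blister libraries, against 1002, 1388 and 7073 CPM in controls 1, 2 and 3. Most of the blister sum came from Postn and Fbln1, and of the 8 genes edgeR called 3 lower, Dcn, Lum and Pdgfra, and 1 higher, Fbln1. The shares over all genes tested were 11.6% called lower and 9.74% called higher. Pdgfra, a receptor of fibroblasts, was at 1.01, 6.06 and 4.42 CPM in blister libraries, against 27.3, 19.3 and 69.2 CPM in controls. With 1 library left out, 1 to 3 of the 8 were called lower and 0 to 1 higher, and without control 3 these counts were 2 and 0.

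The start of a chemokine gene is where inflammatory factors are known to act. The RefSeq sequences around the start sites (GRCm38.p6, 250 bases before the start and 50 after) were therefore compared for the members that had one. The promoter sequences used here covered 6 of the 10 genes, Ccl3, Ccl6, Ccl9, Ccl17, Ccl20 and Ccl22. Ccl6 and Ccl9, neighbours on chromosome 11, are shown first because they resembled each other. The capitals mark the bases of the best local alignment between them, which spans 74 columns with 59 identical (79.7%). It runs from -59 to 15 in Ccl6 and from -18 to 49 in Ccl9, with negative positions before the start. Most of the aligned Ccl9 bases thus lie after the start, and the motif matches of Ccl9 given below lie outside the alignment. In the other 14 pairs the best local alignment spanned 9 to 20 columns. The Ccl6 sequence is chr11:83593038-83593337 and that of Ccl9 is chr11:83578587-83578886, both on the minus strand.
Ccl6: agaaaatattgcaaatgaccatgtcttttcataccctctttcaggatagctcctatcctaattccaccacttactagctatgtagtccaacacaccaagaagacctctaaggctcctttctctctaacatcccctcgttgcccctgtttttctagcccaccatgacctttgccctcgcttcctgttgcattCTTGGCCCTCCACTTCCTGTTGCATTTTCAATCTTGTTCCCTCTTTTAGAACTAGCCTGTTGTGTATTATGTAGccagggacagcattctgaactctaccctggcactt
Ccl9: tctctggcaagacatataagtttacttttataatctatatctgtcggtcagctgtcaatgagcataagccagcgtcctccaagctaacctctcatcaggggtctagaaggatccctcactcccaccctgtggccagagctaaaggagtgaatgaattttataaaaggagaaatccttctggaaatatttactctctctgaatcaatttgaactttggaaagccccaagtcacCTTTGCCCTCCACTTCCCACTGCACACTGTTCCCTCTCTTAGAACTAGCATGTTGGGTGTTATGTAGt
Ccl20 (chr1:83116516-83116815, plus strand) is shown because it holds a kappaB consensus, the site bound by NF-kappaB, marked in capitals, and Ccl3 (chr11:83649329-83649628, minus strand) because it had the largest fold change among the 10 genes and no match to any motif searched.
Ccl20: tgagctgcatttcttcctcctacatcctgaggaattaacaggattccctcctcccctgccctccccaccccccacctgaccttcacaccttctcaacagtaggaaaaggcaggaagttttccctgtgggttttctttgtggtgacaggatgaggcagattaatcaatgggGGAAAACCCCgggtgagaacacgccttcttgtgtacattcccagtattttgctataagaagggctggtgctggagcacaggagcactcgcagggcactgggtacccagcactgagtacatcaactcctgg
Ccl3: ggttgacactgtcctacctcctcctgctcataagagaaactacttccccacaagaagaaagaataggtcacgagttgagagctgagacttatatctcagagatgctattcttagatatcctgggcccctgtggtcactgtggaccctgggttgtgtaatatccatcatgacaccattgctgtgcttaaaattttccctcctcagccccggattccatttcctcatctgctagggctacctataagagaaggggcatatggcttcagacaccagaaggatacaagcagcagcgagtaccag

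4 motifs were searched on both strands of the 6 sequences: the kappaB consensus, the AP-1 site TGANTCA, the C/EBP site TTGCNNAA and TATAAA. Ccl9 held a kappaB match, GGAAAGCCCC on the printed strand, 35 to 26 bases before the start, an AP-1 match, TGAATCA, 53 to 47 bases before it, and 3 matches to TATAAA, of which a pair overlapped. Ccl20 held a kappaB match 80 to 71 bases before the start. Ccl3, Ccl6, Ccl17 and Ccl22 held none of the 4. Of all 32851 RefSeq promoter sequences of this length, 8.46% held a kappaB match, 7.81% an AP-1 match, 10.8% a C/EBP match and 13.6% TATAAA. A match describes letters only, and a window without one says nothing about binding elsewhere.

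Ccl3 and Ccl4, the macrophage inflammatory proteins, had the largest fold changes of the 10 genes. Ccl3 was at 6.79, 14.9 and 4.16 CPM in blister 1, 2 and 3, against 0.537, 0.0700 and 0.284 CPM in control 1, 2 and 3. Every blister library lay far above every control library, where Ccl3 had only 7, 1 and 5 counts. In bulk RNA, a change in the number of cells of a type and a change in RNA per cell cannot be told apart. The blister mean was 8.61 ± 5.58 CPM and the control mean 0.297 ± 0.234 CPM (SD, n = 3 each), a log2 fold change of 4.82 ± 0.70 (SE) in edgeR's quasi-likelihood test, with a Benjamini-Hochberg adjusted p of 0.00814. Without blister 2 the log2 fold change was 4.2, with a blister mean of 5.48 CPM, and without control 1 it was 5.45, with a control mean of 0.177 CPM.

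Ccl4, which lies next to Ccl3 on chromosome 11, was at 4.04, 4.96 and 3.06 CPM in blister libraries, against 0.307, 0.280 and 0.0569 CPM in controls. The blister libraries were close together and well above the controls, which had 4, 4 and 1 counts. Ccl4 had a blister mean of 4.02 ± 0.95 CPM and a control mean of 0.215 ± 0.137 CPM (SD, n = 3 each), giving a log2 fold change of 4.22 with SE 0.51 and an edgeR adjusted p of 0.00658. Both genes rose, and the call of each held in all 6 fits that left out 1 library, with edgeR adjusted p of up to 0.0312 for Ccl3 and 0.029 for Ccl4, both without control 1.

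**Figure D1:**
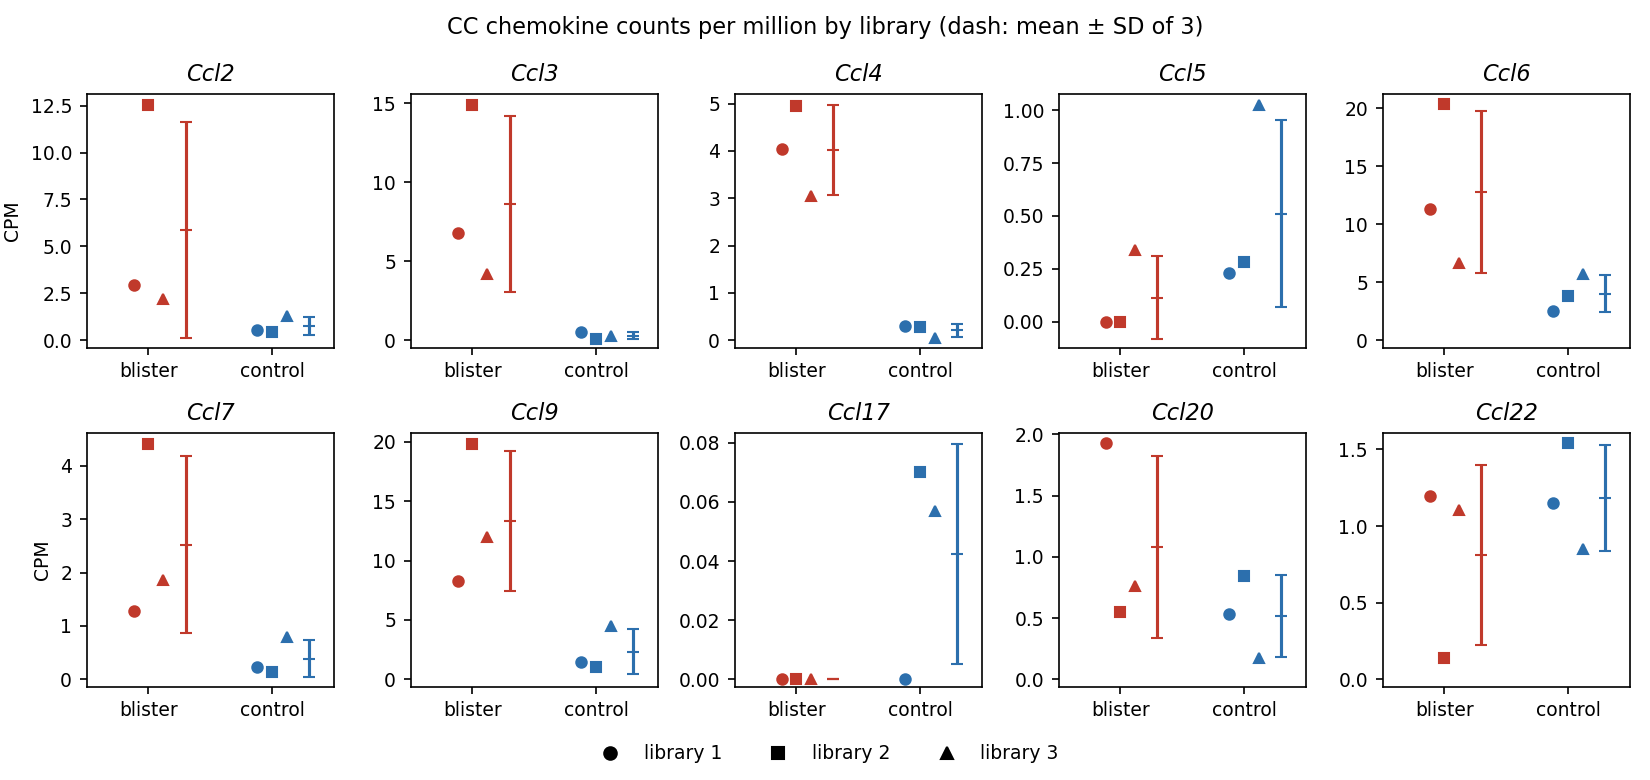
Level of each of the 10 CC chemokines in CPM (vertical axis, a separate scale for each gene) in the 3 blister and 3 control libraries, with the mean and SD of each group as a dash and bar and the library number as the marker. Ccl2, Ccl3, Ccl4, Ccl6, Ccl7 and Ccl9 were higher in every blister library than in any control, while Ccl5, Ccl17, Ccl20 and Ccl22 overlapped between groups.

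Ccl6 and Ccl9, ligands of Ccr1 made by myeloid cells in rodents, were already present in control skin and rose by smaller factors. Ccl6 was at 11.3, 20.4 and 6.62 CPM in blister libraries, against 2.53, 3.78 and 5.69 CPM in controls. The groups did not overlap, but the lowest blister library, blister 3, lay close to control 3. The blister mean was 12.8 ± 6.99 CPM and the control mean 4.00 ± 1.59 CPM (SD, n = 3 each), giving a log2 fold change of 1.65 with SE 0.46 and an edgeR adjusted p of 0.0421. That call was lost without any single library other than blister 3, with edgeR adjusted p of 0.0903 without blister 1, 0.0927 without blister 2, 0.124 without control 1, 0.111 without control 2 and 0.0539 without control 3.

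Ccl9 was at 8.26, 19.8 and 12 CPM in blister libraries, against 1.46, 1.05 and 4.49 CPM in controls. Blister 2 was the highest library for it, and control 3 was the highest control. The blister mean was 13.4 ± 5.90 CPM and the control mean 2.33 ± 1.88 CPM (SD, n = 3 each), giving a log2 fold change of 2.48 with SE 0.58 and an edgeR adjusted p of 0.0251. Without control 3 the control mean was 1.25 CPM and the log2 fold change 3.40. The call was lost without blister 2 (edgeR adjusted p = 0.0603), without control 1 (0.0858) and without control 2 (0.0655).

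Ccl2 and Ccl7, the monocyte attractants, rose with a wide spread between blister libraries. Ccl2 was at 2.94, 12.5 and 2.21 CPM in blister libraries, against 0.537, 0.420 and 1.31 CPM in controls. Blister 2 stood above the other 2 blister libraries, and control 3 above the other 2 controls. The blister mean was 5.89 ± 5.76 CPM and the control mean 0.755 ± 0.483 CPM (SD, n = 3 each), giving a log2 fold change of 2.88 with SE 0.78 and an edgeR adjusted p of 0.0387. Without blister 2 the blister mean was 2.57 CPM and the log2 fold change 1.73 (edgeR adjusted p = 0.0679), and without control 3 the control mean was 0.479 CPM and the log2 fold change 3.55 (0.0589). The call was also lost without blister 1 (0.063), without control 1 (0.119) and without control 2 (0.109).

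Ccl7, the neighbour of Ccl2 on chromosome 11, was at 1.28, 4.41 and 1.87 CPM in blister libraries, against 0.230, 0.140 and 0.796 CPM in controls. The same libraries, blister 2 and control 3, were the highest of their groups. The blister mean was 2.52 ± 1.66 CPM and the control mean 0.389 ± 0.356 CPM (SD, n = 3 each), giving a log2 fold change of 2.56 with SE 0.71 and an edgeR adjusted p of 0.0407. Without control 3, the library high in dermal markers, the control mean was 0.185 CPM and the log2 fold change 3.65 (edgeR adjusted p = 0.0361). Without blister 2 the blister mean was 1.58 CPM and the log2 fold change 1.95, and the call was lost (0.0942), as it was without blister 1 (0.0629), control 1 (0.126) or control 2 (0.105). The part of dermal cells in the levels of Ccl2, Ccl7 and Ccl9 was not tested.

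The remaining 4 genes were low, and none passed the test. Ccl22, a ligand of Ccr4 made by dendritic cells and macrophages, had 13, 1 and 13 counts in blister libraries and 15, 22 and 15 counts in controls. These were 1.19, 0.138 and 1.1 CPM in blister libraries, against 1.15, 1.54 and 0.853 CPM in controls, so blister 2, the highest library for Ccl2, Ccl3, Ccl4, Ccl6, Ccl7 and Ccl9, was the lowest for Ccl22. The log2 fold change of Ccl22 was -0.45 ± 0.58 (SE, edgeR adjusted p = 0.601).

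Ccl20, the ligand of Ccr6, had 21, 4 and 9 counts in blister libraries and 7, 12 and 3 counts in controls, or 1.93, 0.551 and 0.764 CPM in blister libraries, against 0.537, 0.840 and 0.171 CPM in controls. The groups overlapped, with blister 1 the highest. Ccl5, known from T cells and natural killer cells, had 0, 0 and 4 counts in blister libraries and 3, 4 and 18 counts in controls, and 18 of its 25 control counts lay in control 3. Ccl17, the other ligand of Ccr4, had 0 counts in each blister library and 0, 1 and 1 counts in controls, and a count of 0 allows up to 3 counts per library, or 0.255 to 0.413 CPM at these depths. Ccl5, Ccl17 and Ccl20 did not pass the filter on low counts. With no filter, edgeR gave log2 fold changes of 1.1 for Ccl20 (adjusted p = 0.312) and -1.95 for Ccl5 (adjusted p = 0.273), and neither passed the test.

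In all, 6 of the 10 genes were called higher and 0 lower. The background was 9.74% of 14028 genes tested that were called higher in blister libraries and 11.6% called lower, at an adjusted p under 0.05. These were 1367 and 1626 genes, against 544 higher and 2831 lower with library size scaling alone, which moved the median log2 fold change of all genes to -0.25. Of the 10 genes, 7 passed the filter on low counts, which a gene high in 1 group can pass through that group alone, so the count over those 7 is no measure of the family. The 10 genes were also chosen with earlier results of these data known, so an excess over the background is no independent evidence. With no filter, all 10 entered the fit and 6 were called higher, among 20255 genes. For 6 genes every blister library lay above every control, against 21.4% of all genes tested. Ccl3, Ccl4 and Ccl9 kept their calls with library size scaling alone and with Xist as a covariate, whereas Ccl6 and Ccl7 lost theirs in both fits and Ccl2 lost its call with Xist.

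**Figure D2:**
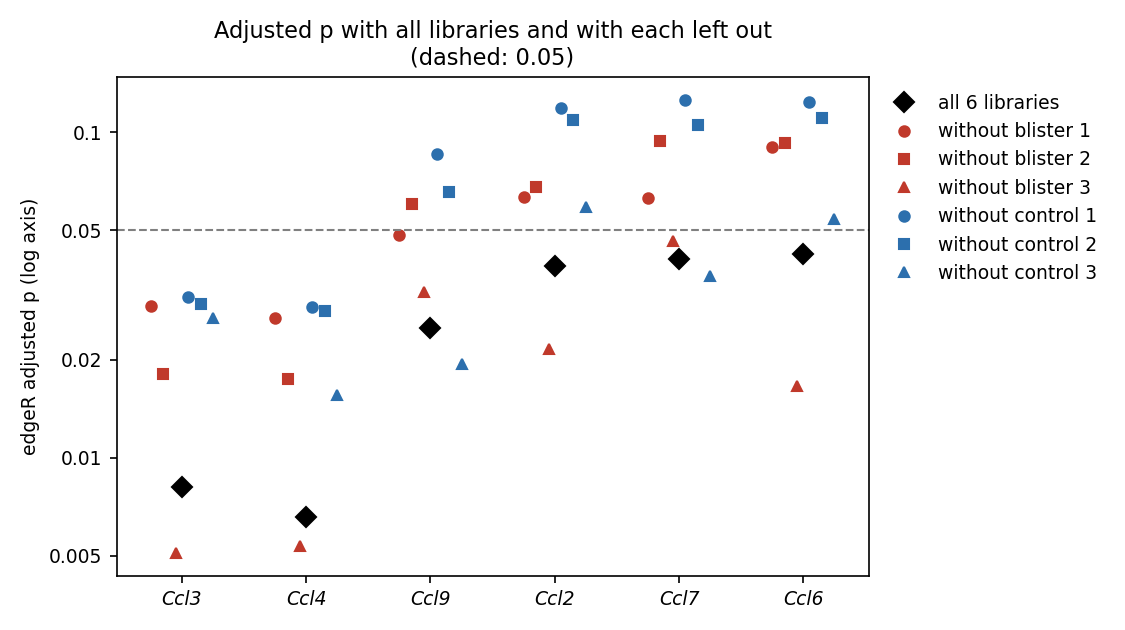
Adjusted p of edgeR's test (vertical log axis) for the 6 called genes, with all 6 libraries (diamond) and with 1 library left out (coloured by its group, marker by its number), and a dashed line at 0.05. Ccl3 and Ccl4 stay under the line in every fit, while Ccl2, Ccl6, Ccl7 and Ccl9 cross it in 3 to 5 of the 6.

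Per length, the 6 called genes overlapped in their ranges over the blister libraries, but Ccl3 ranked first within each library. On the scale of CPM per kilobase of exon (GENCODE M21 exon lengths), the level in blister libraries was 11.2 ± 7.28 for Ccl3, 7.11 ± 3.90 for Ccl6, 6.09 ± 1.44 for Ccl4, 5.18 ± 5.06 for Ccl2, 4.38 ± 1.94 for Ccl9 and 3.15 ± 2.07 for Ccl7 (SD, n = 3). Each of these but Ccl7 overlapped the next in rank over its 3 libraries. Within blister 1, 2 and 3 taken singly, Ccl3 was the highest of the 10 genes, at 8.87, 19.4 and 5.43. The 1 break in the order lay below Ccl7, whose lowest blister library, at 1.60 CPM per kilobase, exceeded the highest for Ccl20, at 1.36. In control libraries Ccl6 ranked first at 2.23 ± 0.886 CPM per kilobase (SD, n = 3), followed by Ccl9 at 0.766 ± 0.618, and Ccl3 and Ccl4 ranked in places 7 and 9 of 10, at 0.388 ± 0.305 and 0.325 ± 0.208, again with overlap between every pair of neighbours. Ccl6 was nevertheless the highest of the 10 within each control library, at 1.41, 2.11 and 3.17 in control 1, 2 and 3.

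The mixture of the 10 genes differed between groups. Ccl3 and Ccl4 together held 28.7%, 25.5% and 22.5% of the counts of the 10 genes in blister 1, 2 and 3, against 11.2%, 4.13% and 2.32% in control 1, 2 and 3. Every blister share was higher than every control share. The exact (Clopper-Pearson) 95% intervals, which cover counting error only, were 18.4% to 27.0% in blister 3, the lowest blister library, and 5.74% to 19.2% in control 1, the highest control, so these 2 intervals overlapped. The share of Ccl6 and Ccl9 was 51.8%, 51.8% and 57.9% in blister libraries, against 53.1%, 57.0% and 69.1% in controls, and the groups overlapped. Ccl6 alone held less in every blister library (29.9%, 26.2% and 20.6%) than in any control (33.7%, 44.6% and 38.6%). So did Ccl22 (3.16%, 0.177% and 3.44% against 15.3%, 18.2% and 5.79%) and Ccl5 (0%, 0% and 1.06% against 3.06%, 3.31% and 6.95%). For each of these genes the exact 95% intervals of the nearest libraries overlapped. Shares of 1 total also depend on each other. That of Ccl2 and Ccl7 was 11.2%, 21.8% and 12.7% in blister libraries, against 10.2%, 6.61% and 14.3% in controls, and again overlapped. Summed over the 10 genes, the level was 37.7, 77.6 and 32.1 CPM in blister libraries, against 7.52, 8.47 and 14.7 CPM in controls.

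**Figure D3:**
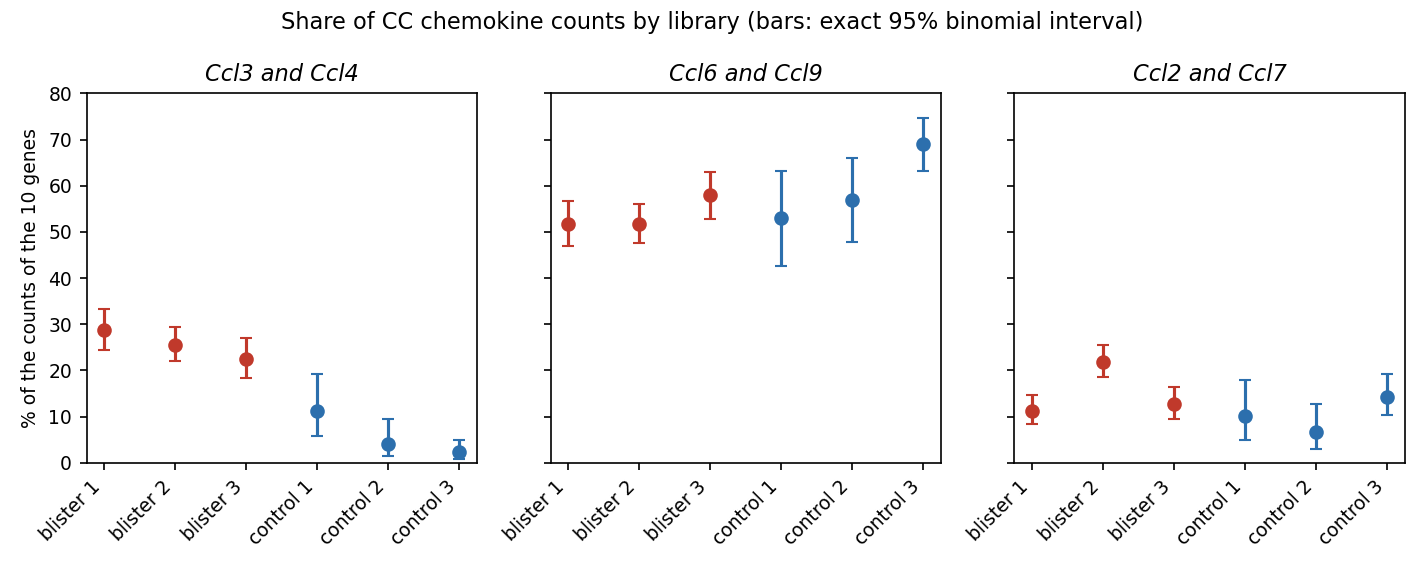
Share of the counts of the 10 genes (vertical axis, percent) held by 3 pairs of genes in each of the 6 libraries, with exact 95% binomial intervals. Ccl3 and Ccl4 held 22.5% to 28.7% in blister libraries and 2.32% to 11.2% in controls, while the other pairs overlapped between groups.

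The genes that rose lie close together. In the RefSeq gene order of GRCm38.p6, all 6 called genes are on chromosome 11, in 2 runs of CC ligand genes. The first run is Ccl2, Ccl7, Ccl11, Ccl12, Ccl8 and Ccl1, and the second is Ccl5, Ccl9, Ccl6, Ccl3 and Ccl4, with no other protein-coding gene between members of a run. Calls did not extend over the whole of either run. Ccl11, an eosinophil attractant, had 0 counts in every library except control 3, where it had 17. Ccl12, a mouse ligand of Ccr2, had 2, 11 and 2 counts in blister libraries and 4, 2 and 8 counts in controls. Ccl8 had 0 counts in blister libraries and 2 in controls in all, Ccl1 had 4 counts in blister libraries and 3 in controls, and Ccl5 did not pass the filter. Ccl22 and Ccl17 are on chromosome 8, on either side of Cx3cl1, and Ccl20 is on chromosome 1. No stretch of 50 bases was shared between the GENCODE M21 transcripts of any pair of the 10 genes, and outside the family 1.97% of such stretches of Ccl9, but 0 of the other 9 genes, also occurred in transcripts of other genes.

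Of 11 other CC ligand genes in the list used, 3 passed the filter and 0 were called by edgeR (0 also at an unadjusted p under 0.05 and 0 by DESeq2). Ccl27a, a chemokine of resting keratinocytes that acts through Ccr10, was at 5.78, 8.53 and 5.35 CPM in blister libraries, against 11, 8.75 and 4.95 CPM in controls. The groups overlapped, and its log2 fold change was -0.34 with SE 0.34 (adjusted p = 0.498, edgeR). Ccl27a has near-identical copies in the mouse genome, and its level is uncertain where reads were split between them. The others tested were Ccl25, the ligand of Ccr9, with a log2 fold change of 0.45 with SE 0.32 (adjusted p = 0.326, edgeR), and Ccl28, the other ligand of Ccr10, with 0.31 ± 0.37 (SE, 0.578). Ccl19, Ccl21a and Ccl26 had 0 counts in all 6 libraries.

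Among 11 receptor genes, 6 were tested, 2 rose and 0 fell, against 9.74% of all genes tested called higher and 11.6% called lower. Ccr1, the receptor of Ccl3, Ccl6, Ccl7 and Ccl9, was at 16.0, 19.3 and 12.9 CPM in blister libraries, against 5.14, 2.66 and 3.24 CPM in controls. The groups were well apart. Ccr1 had a blister mean of 16.0 ± 3.18 CPM and a control mean of 3.68 ± 1.30 CPM (SD, n = 3 each), giving a log2 fold change of 2.12 with SE 0.30 and an edgeR adjusted p of 0.00769, and the call held in all 6 fits with 1 library left out. Ccrl2, an atypical receptor that presents the attractant chemerin rather than CC ligands and is found on neutrophils, was at 3.40, 12.1 and 1.1 CPM in blister libraries, against 0.307, 0.0700 and 0.228 CPM in controls. Its blister libraries spread widely and all lay above the controls. Its log2 fold change was 4.68 with SE 1.0 (adjusted p = 0.0199, edgeR), and 3.43 without blister 2, where the blister mean was 2.25 CPM. The Ccrl2 call was lost without control 1 (edgeR adjusted p = 0.0614), control 2 (0.0649) or control 3 (0.0607).

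Ccr2, the receptor of Ccl2 and Ccl7 on monocytes, had 2, 6 and 8 counts in blister libraries and 7, 7 and 23 counts in controls, under the filter. Ccr4, the receptor of Ccl17 and Ccl22, had a log2 fold change of -0.02 with SE 0.47 (adjusted p = 0.978, edgeR), Ccr9 of 0.73 ± 0.33 (SE, 0.148) and Ccr10, the receptor of Ccl27a, of -0.43 ± 0.53 (SE, 0.587). Ccr6, the receptor of Ccl20, had 2 counts in blister libraries and 1 in controls in all.

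The atypical receptors are known to take CC chemokines out of tissue. Ackr4, which removes Ccl19, Ccl21 and Ccl25 and is known from keratinocytes, fell. It was at 31.3, 42.4 and 40.9 CPM in blister libraries, against 64.7, 57.1 and 54.0 CPM in controls, so the groups did not overlap. Its log2 fold change was -0.62 with SE 0.15 (adjusted p = 0.0277, edgeR), a call lost without blister 1 (0.0813), control 1 (0.105), control 2 (0.0703) or control 3 (0.0536). Ackr2, the scavenger of inflammatory CC chemokines such as Ccl2, Ccl3 and Ccl4, had a blister mean of 1.19 ± 0.488 CPM and a control mean of 1.21 ± 0.0851 CPM (SD, n = 3 each, edgeR adjusted p = 0.96). Ackr1 had 11 counts in blister libraries and 63 in controls, 55 of them in control 3, and was not tested.

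**Figure D4:**
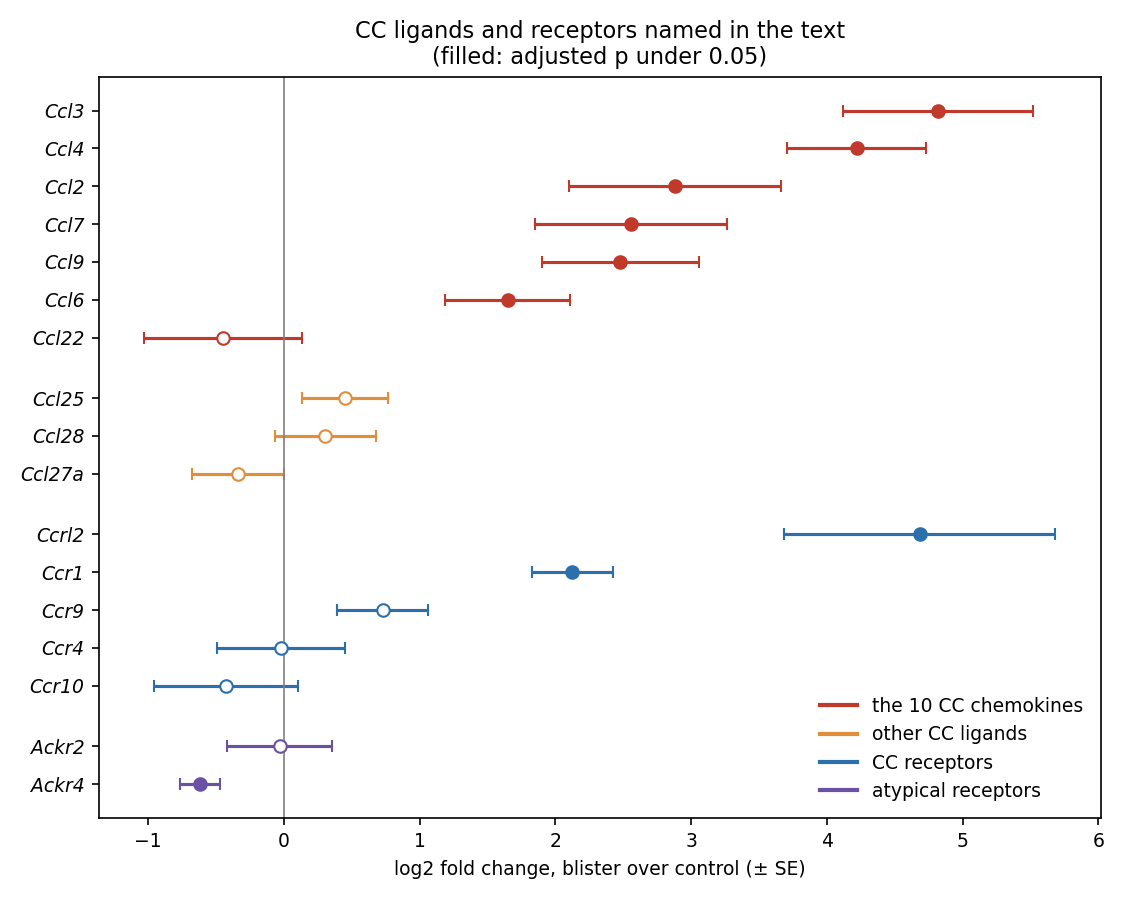
Log2 fold change, blister over control (horizontal axis, bars ± SE), of CC ligand and receptor genes that passed the filter on low counts and are named in the text, with filled points at an edgeR adjusted p under 0.05. The 6 called ligands lie between 1.65 and 4.82, Ccr1 at 2.12 and Ccrl2 at 4.68, and Ackr4 lies at -0.62.

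CC chemokine genes are known to be induced by interleukin 1, tumour necrosis factor and interleukin 17 through NF-kappaB. Of 20 listed inducers, their receptors and NF-kappaB genes, 17 were tested, 6 rose and 0 fell. Of all genes tested, 9.74% were called higher and 11.6% lower. The median log2 fold change of the 17 was 0.40 against 0.00 for all genes tested. Il1b, the inducible interleukin 1 ligand, was at 113, 63.0 and 23.1 CPM in blister libraries, against 2.99, 1.12 and 0.796 CPM in controls. Every blister library was above every control, and blister 1, not blister 2, was the highest. Its log2 fold change was 5.38 with SE 0.72 (adjusted p = 0.0074, edgeR), 4.75 without blister 1, where the blister mean was 43.1 CPM, and 6.12 without control 1, where the control mean was 0.958 CPM. Nfkbiz, an NF-kappaB cofactor induced by interleukins 1 and 17, was at 62.3, 81.8 and 55.6 CPM in blister libraries, against 30.4, 26.2 and 29.9 CPM in controls, a log2 fold change of 1.21 with SE 0.16 and an edgeR adjusted p of 0.0074.

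The other 4 that rose were the adaptor gene Myd88 (log2 fold change 0.79), the receptor chains Il17rc (0.74) and Il1rap (0.57) and the NF-kappaB subunit gene Nfkb1 (0.36), with edgeR adjusted p of 0.0214, 0.0304, 0.0347 and 0.0468. With 1 library left out, 4, 4, 5 and 5 of 6 fits lost these calls, without blister 1 or any control for Myd88 and Il17rc, and also without blister 2 for Il1rap and Nfkb1, with edgeR adjusted p of up to 0.0752, 0.1, 0.108 and 0.186, each without control 1. Library size scaling alone also ended the calls of Il17rc (log2 fold change 0.47, edgeR adjusted p = 0.0553), Il1rap (0.32, 0.209) and Nfkb1 (0.10, 0.527), and the Xist covariate ended those of Il17rc (0.0698), Il1rap (0.0514) and Nfkb1 (0.0704). A block for replicate number ended those of Il1rap (0.0551) and Nfkb1 (0.0620). Nfkb1 further lost its call with no filter (0.0764) and with the stricter filter (0.0579). Tnf, the tumour necrosis factor gene, was at 2.84, 7.16 and 1.78 CPM in blister libraries, against 2.45, 1.26 and 1.14 CPM in controls (edgeR adjusted p = 0.145), and was highest in blister 2. Il17a had 0 counts in all 6 libraries and Il17f 0 in blister libraries. Among 14 genes that carry the signal from chemokine receptors, all tested, 1 rose and 1 fell. Neither count exceeded the share over all genes tested, 9.74% called higher and 11.6% called lower. Rac2, a small GTPase of blood cells, was at 12.6, 27.7 and 9.76 CPM in blister libraries, against 6.14, 2.87 and 4.55 CPM in controls, a log2 fold change of 1.87 with SE 0.45 and an edgeR adjusted p of 0.0277. Gng2, a G protein subunit gene, fell by 1.04 ± 0.25 (SE) on the log2 scale (edgeR adjusted p = 0.0269). The Rac2 call was lost without blister 1 (0.0597), control 1 (0.0594), control 2 (0.0796) or control 3 (0.0735), and that of Gng2 without blister 1 (0.0806), control 1 (0.0968) or control 3 (0.0789). Both were also lost with the Xist covariate (0.0648 for Rac2 and 0.0572 for Gng2) and with a block for replicate number (0.0657 and 0.0568).

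Markers of neutrophils were higher in blister libraries as a sum. Of 13 neutrophil markers 9 were tested, 8 rose and 0 fell, against 9.74% of all genes tested called higher. A marker high in 1 group can pass the filter through that group alone, and with no filter 9 of 13 were called higher. This list, too, was chosen with earlier results of these data known. The summed level of the 13 was 649, 923 and 303 CPM in blister 1, 2 and 3, against 37.9, 30.7 and 44.3 CPM in controls. Blister 2 was the highest library both for this sum and for the summed CC chemokines, and blister 3 the lowest blister library for both. S100a8 and S100a9 made up much of the neutrophil sum, at 265 and 350 CPM in blister 2. Not every gene kept that order. Ccl2, Ccl3, Ccl4 and Ccl6 did, but Ccl7 and Ccl9 were lowest in blister 1 among blister libraries. Trem1 of the neutrophil list was highest in blister 1, at 31.2, 19.8 and 8.15 CPM in blister 1, 2 and 3. Mpo, made by immature neutrophils, had 0 counts in blister libraries. Of 12 monocyte and macrophage markers 11 were tested, and 3 rose, among them Cd14 and Fcgr1, which also occur in neutrophils. The list summed to 708 to 1256 CPM in blister libraries and 472 to 500.0 CPM in controls, but the median log2 fold change of the 11 tested was -0.18. Csf1r, C1qa, C1qb and C1qc, defining markers of resident macrophages, did not pass the test. With 1 library left out, 6 to 9 neutrophil markers and 1 to 3 monocyte and macrophage markers were called higher. Without blister 2, 1 monocyte and macrophage marker was called lower. The part of these cells in the CC chemokine levels was not tested.

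Markers of Langerhans and dendritic cells summed to 264 to 309 CPM in blister libraries and 275 to 338 CPM in controls, and edgeR called 0 of the 6 tested (1 at an unadjusted p under 0.05, 0 by DESeq2). T cell markers summed to 48.9 to 65.5 CPM in blister libraries and 73.2 to 87.2 CPM in controls, with 0 of 8 called by edgeR (1 at an unadjusted p under 0.05, 0 by DESeq2). Mast cell markers summed to 13.8 to 31.3 CPM in blister libraries and 40.5 to 221 CPM in controls, and endothelial markers to 3.30 to 7.85 CPM in blister libraries and 9.74 to 71.2 CPM in controls, with control 3 the highest in both. In the mast cell list 1 of 4 genes tested fell, Kit, which made up most of the sum in controls 1 and 2, at 56.9 and 35.9 CPM, and is also known from melanocytes. Of 5 endothelial genes tested 2 fell, Kdr and Cldn5, against 5 called lower by DESeq2. With 1 library left out, 0 to 1 mast cell genes and 0 to 2 endothelial genes were called lower, and none of either list without blister 1, blister 2 or control 3. Fcer1a of the mast cell list and Emcn of the endothelial list had 0 counts in blister libraries. Keratinocyte markers, which define the labelled tissue, summed to 110042 to 201895 CPM in blister libraries and 64823 to 90271 CPM in controls. Of these, 5 of 8 rose, or 2 to 5 with 1 library left out. The shares over all genes tested were 9.74% called higher and 11.6% called lower.

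**Figure D5:**
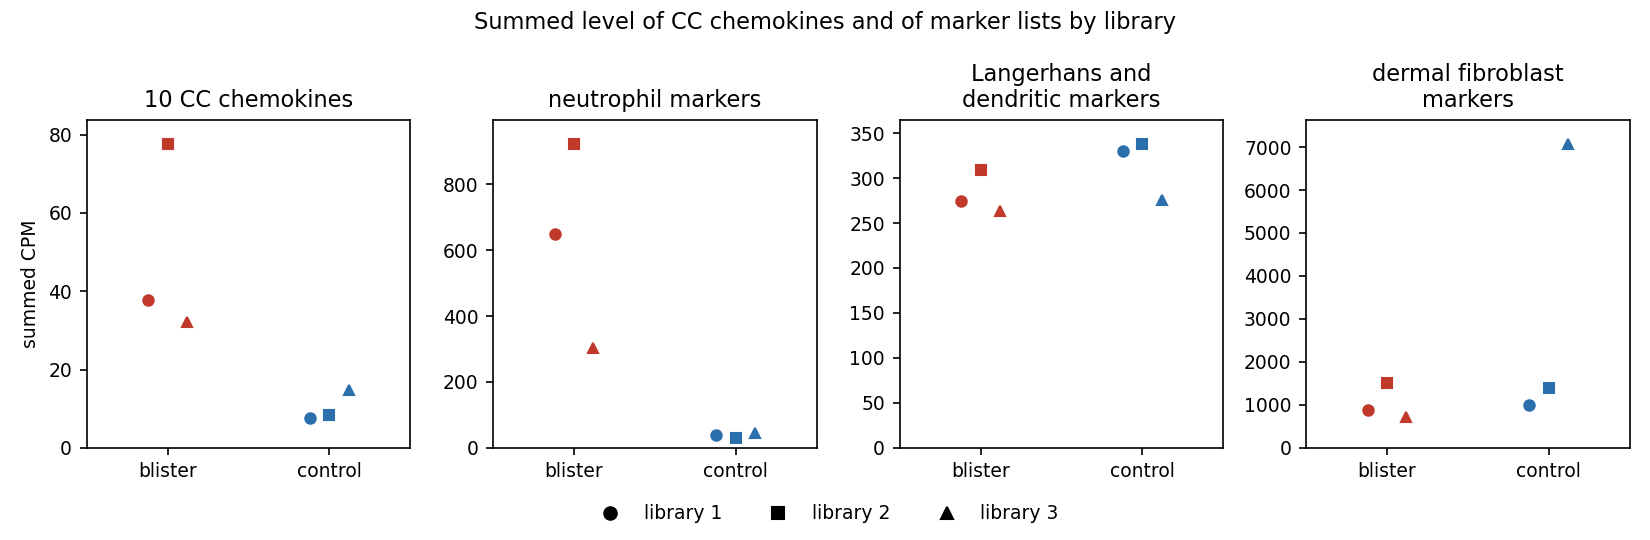
Summed CPM (vertical axis, a separate scale for each panel) of the 10 CC chemokines and of 3 marker lists in the 3 blister and 3 control libraries, marked by library number. Chemokines and neutrophil markers were higher in every blister library, Langerhans and dendritic markers overlapped between groups, and dermal fibroblast markers stood out in control 3 at 7073 CPM.

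Over the 6 libraries, genes most like a CC chemokine in pattern were sought for the 2 members with a mean of at least 5 CPM, Ccl6 and Ccl9, among 11236 genes of at least that level. Pearson's r of log2 CPM, given as a description over 6 libraries that share the group difference, was highest for Ccl6 with Cdk5rap1 (0.995) and Nup54 (0.992). For Ccl9 it was 0.991 with Ifi204, which was among its 2 most similar genes. Ifi204, an interferon-inducible gene of myeloid cells, was at 7.98, 12.1 and 8.83 CPM in blister libraries, against 1.61, 1.61 and 4.84 CPM in controls. Like Ccl9, it was highest in blister 2 and, among controls, in control 3. Cdk5rap1 was at 11.1, 13.8 and 9.85 CPM in blister libraries, against 7.83, 8.61 and 9.67 CPM in controls, so it followed the order of Ccl6 over a much narrower range.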

How the data were processed

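The deposited values are raw read counts per gene, 1 table of symbols and whole numbers for each of 6 libraries (3 blister, 3 control), with 3759 of 24014 genes at 0 throughout. HISAT2 2.0.0 and featureCounts are the tools, and NCBIM37 and mm9 the builds, in the submitters' processing notes. The annotation and strand setting were not given in the sources used here, so genes are identified by symbol. RefSeq and GENCODE M21 (GRCm38) served only for sequences, gene order and exon lengths.

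Counts were tested with edgeR 4.0.16 in R 4.3.3 (TMM, filterByExpr with a minimum count of 10 and total of 15, quasi-likelihood F-test, group as the only term, two-sided, Benjamini-Hochberg over 14028 genes). SE is the log2 fold change divided by the root of F. CPM uses the counts of tested genes times the TMM factor as library size. Shares have Clopper-Pearson intervals (scipy 1.17.1), and intervals and floors of 3 counts cover counting error only. No library was a copy of another. The fit was tested on simulated counts. All 10 members were named, with called genes of 5 lists, 6 genes whatever their outcome and the most similar genes. Other genes of the lists that the text names, and marker genes, were picked after their values were seen. Some genes of the lists and of the naming rule are not reported here. Members and lists were chosen with earlier results of these data known.

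Alternatives were DESeq2 1.42.0, median-of-ratios and library size scaling, no filter, a stricter filter (5 CPM in 3 libraries), a block for replicate number, log2 CPM of Xist as a covariate and leaving out each library.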

Additional observations from a re-analysis of the deposited data

How the results depend on the processing

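All 13 alternatives kept the direction of every fold change they gave for the 7 genes tested, 86 in all, and 61 kept their side of the threshold. Calls were lost 25 times, each for Ccl2, Ccl6, Ccl7 or Ccl9. Beyond the fits that left out a library, Ccl2 lost its call with the replicate block (log2 fold change 2.58, adjusted p = 0.0864) and with Xist (2.78, 0.117), Ccl6 with library size scaling (1.40, 0.0634), the replicate block (1.60, 0.0777) and Xist (1.72, 0.105), and Ccl7 in the same 3 fits (2.33, 0.0534; 2.59, 0.0666; 2.83, 0.0739). With 1 library left out, log2 fold changes ran from 1.73 to 3.55 for Ccl2, 1.16 to 1.99 for Ccl6, 1.95 to 3.65 for Ccl7 and 2.11 to 3.40 for Ccl9. The number of the 10 genes called higher was 2 with the stricter filter, which only 2 of them passed, 3 with the replicate block, 3 with Xist and 2 to 6 with 1 library left out, against 6 in all. Whether the replicate numbers pair the libraries is not in the labels. Deviations from the group means correlated at 0.21, -0.26 and 0.01 for numbers 1, 2 and 3. Blister 3 alone correlated best with the control of its own number. Deviations from a mean of 3 libraries depend on each other, so these values cannot decide whether the libraries are paired.

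Over all genes, library size scaling moved the median log2 fold change to -0.25 and gave 544 calls higher and 2831 lower, Xist gave 680 and 1016, and leaving out 1 library gave 306 to 1998 higher and 479 to 2063 lower. Receptors called higher numbered 1 with the stricter filter and 1 to 2 with 1 library left out. The Ackr4 call went to 0 with the replicate block, and to 0 to 1 with 1 library left out. Inducers called higher numbered 3 with library size scaling, 3 with Xist and 2 to 7 with 1 library left out. Signalling genes called higher numbered 0 with the replicate block, 3 in DESeq2, 0 with Xist and 0 to 2 with 1 library left out, and those called lower 2, 0, 0 and 0 to 1 with library size scaling, the replicate block, Xist and 1 library left out. The log2 fold change of Ackr2 turned to 0.28 without blister 3 and 0.03 without control 1, and ran from -0.36 to 0.28 with 1 library left out. The cause was not tested. Counts of 98 to 259 for the 10 genes together in a control library limit the precision of their fold changes.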
